A study of Rattus norvegicus with 26 samples.

Results

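RNA levels in the untreated, hypertensive aorta were described from the 8 saline arrays of a series of 26. The animals were male spontaneously hypertensive rats (SHR), an inbred strain that develops high blood pressure without intervention; each was caged singly and given saline by mouth (7.5 mL per kg) for 4 weeks. On day 28 the rats were killed with pentobarbital, the thoracic aorta was taken, and total RNA of each aorta was labelled with Cy3 and hybridised to a 1-colour Agilent rat array. The sources used here do not state the age of the rats, no normotensive strain was analysed here, and the treated rats of the series were not used. A probe was a member when it lay outside the array's controls and was well above background on all 8 arrays. This held for 19770 of 30367 probes (65.1%), and named probes among them stood for 10548 of the 15168 genes on the array (69.5%), each represented by its brightest probe.

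The thoracic aorta is an elastic artery. Its media is built of smooth muscle cells between sheets of elastin, its inner face is a single layer of endothelium, and its outer adventitia holds fibroblasts and collagen and lies in fat that has brown-like properties in rodents. Smooth muscle cells shorten when myosin light chain kinase, activated by calcium and calmodulin, phosphorylates the light chains of smooth muscle myosin (Myh11), which then pulls on filaments of smooth muscle actin (Acta2), while transgelin (Tagln) binds those filaments. Serum response factor with its partner myocardin switches such genes on through CArG boxes, short A- and T-rich elements in promoters and introns, and the same factor with other partners acts on immediate early genes.

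A level is the log2 signal of a probe minus the 75th percentile of its array, so 0 marks the 75th percentile and a gap of 1 is a doubling. Brightness also depends on how well a probe binds, so a rank between genes describes probe signal and no fold between genes is given. Genes were ranked by mean level and by SD over the 8 arrays, and the brightest, steadiest and most variable 10% each held 1054 genes (9.99%). At the edge of the brightest 10% lay Nus1 (3.09, inside) and Smim7 (3.09, outside). The edges by SD lay at 0.13 for the steadiest 10% (Taf2 inside, Efr3a outside) and 0.83 for the most variable 10% (Slc7a3 inside, Clca4 outside), and the median SD over genes was 0.33.

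The 8 arrays did not behave as 8 unrelated samples. They lay on 2 slides of 4, arrays 1 to 4 on the first and 5 to 8 on the second, numbered here by the replicate numbers in the titles. Deviations from the mean of arrays 1 to 3, or from that of arrays 5 to 7, were alike for arrays at the same position of the slides. Arrays 4 and 8 were left out. Over ranked probes the deviations correlated at 0.88 for arrays 1 and 5, 0.87 for 2 and 6 and 0.95 for 3 and 7. Other combinations gave -0.82 to 0.46. The 3 deviations of a slide sum to 0 for each probe, so negative values there are partly forced. The median absolute difference was 0.107 between arrays 1 and 5, 0.0813 between 2 and 6 and 0.123 between 3 and 7, while for arrays of the same slide it ran from 0.126 (1 and 4) to 0.533 (2 and 3). The SD of the difference, which weighs wide gaps more, did not set the pairs apart in this way. It was 0.50 for arrays 1 and 5, 0.43 for 2 and 6 and 0.48 for 3 and 7. Within slides it was 0.45 for arrays 1 and 2 and 0.42 for 5 and 6. Repeated spots of a probe on one array had a median SD of 0.0421 to 0.0535.

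Arrays 4 and 8 lay close to averages of others. The level on array 4 differed from the average of arrays 1 and 2 with an SD of 0.17 over probes. That of array 8 differed from the average of arrays 2 and 3 with an SD of 0.17. For the other 6 arrays the closest such average was 0.27 to 0.54 away, but averages that held array 4 or 8 were not tried. Array 8 lay between arrays 2 and 3 for 8709 of the 10548 genes, and array 4 between 1 and 2 for 7602. Over arrays 1, 2, 3, 5, 6 and 7, differences between the 3 pairs held 86.8% of the sum of squares over genes. The difference of arrays 5 to 7 from arrays 1 to 3 held 10.7% and the remainder 2.48%. The labels give each array as 1 rat, and what makes the arrays resemble each other was not tested. An SD therefore measures only the spread between these arrays, which may be technical in part, and the SD over 8 arrays of the main genes is given with the SD over 3 averages (arrays 1 and 5, 2 and 6, 3 and 7).

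**Figure D1:**
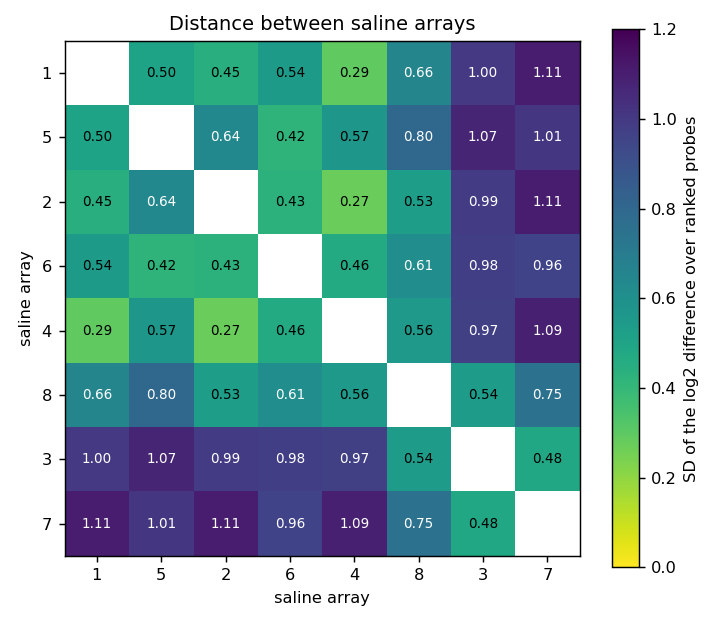
SD of the log2 difference between each 2 of the 8 saline arrays over the 19770 ranked probes. The arrays stand in the order 1, 5, 2, 6, 4, 8, 3 and 7, which was set beforehand and not by these distances. Array 4 lies closest to arrays 2 and 1 (0.27 and 0.29), array 8 to arrays 2 and 3 (0.53 and 0.54), and arrays 3 and 7 lie farther from arrays 1, 2, 4, 5 and 6 than from each other.

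Genes of the contractile apparatus were among the brightest of the saline aorta. All 20 contractile genes on the array were ranked, and 13 of them (65.0%) lay in the brightest 10%, which holds 9.99% of all ranked genes. Each of the 3 defining markers was there: Acta2 at rank 82 with a mean level of 6.53 ± 1.27 (SD, n = 8 arrays; 1.05 over 3 averages), Myh11 at rank 141 with 5.86 ± 0.36 (0.46) and Tagln at rank 260 with 5.07 ± 0.55 (0.69). All 3 were well above background on every array, but the filter required this of each ranked gene, and 69.5% of all genes on the array passed it.

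Acta2 was at 7.48, 7.42, 6.41 and 7.47 on arrays 1 to 4 and at 6.94, 5.53, 3.86 and 7.14 on arrays 5 to 8. It was lowest on arrays 6 and 7, and the SD over arrays was 0.72 without array 7. Tagln ranged from 4.18 to 5.55 with a median of 5.33, and Myh11 from 5.31 to 6.21 with a median of 6.01. Both were lowest on arrays 3 and 7 and next lowest on array 8, and Myh11 was at 6.01 on both array 2 and array 6, between which Acta2 differed.

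For all 20 contractile genes the average of arrays 3 and 7 was the lowest of the 3 averages, which held for 47.4% of all ranked genes. Myl6, an essential light chain of myosin that is also made outside muscle, was the brightest of the list (rank 8) with levels from 7.42 to 8.02. Mylk, the light chain kinase, ranged from 5.03 to 6.69 and Tpm1, a tropomyosin that lies along actin filaments, from 5.06 to 7.03. Arrays 3 and 7 were both below arrays 1, 2, 5 and 6 for 18 of the 20 genes, which was the case for 38.6% of all ranked genes.

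Spread within the list was wide relative to other genes. The median SD over its members was 0.68 against 0.33 over all genes, 3 of the 20 lay in the most variable 10%, and 0 lay in the steadiest. Acta2 and Csrp1, a LIM protein of the actin cytoskeleton, had the highest SDs of the list: Csrp1 was at 5.27, 4.96, 3.12 and 5.14 on the first slide and 3.56, 3.43, 2.00 and 4.30 on the second. Members with several ranked probes could be checked against each other only in part, since Acta2, Tagln and Csrp1 had 1 ranked probe each, and over all genes with several ranked probes 452 of 1612 (28.0%) had probe SDs more than 2-fold apart.

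**Figure D2:**
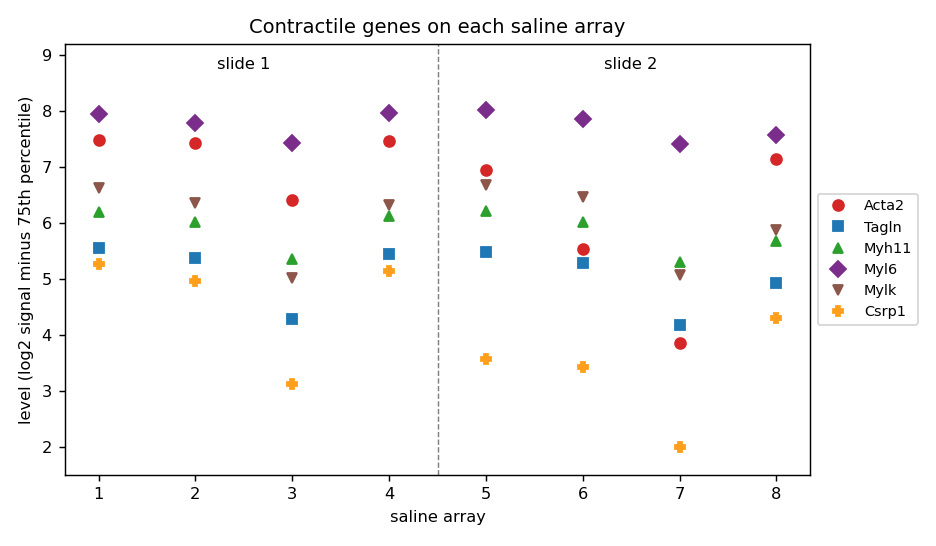
Level (log2 signal minus the array's 75th percentile) of 6 contractile genes on each of the 8 saline arrays, 1 point per array, with the slides divided by the dashed line. All 6 are lower on arrays 3 and 7 than on arrays 1 and 5; Acta2 and Csrp1 are also lower on arrays 5 and 6 than on arrays 1 and 2.

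The promoter of Acta2 is printed because it holds, close to the start site, sequence of the kind bound by serum response factor. The search covered 250 bases before to 50 after the start, in RefSeq's GRCr8 promoter table, for the CArG box, CCNNNNNNGG with each N an A or T; no contractile gene of the 16 in the table had one, against 1.28% of the 8642 ranked genes and 1.64% of all 27457 genes in the table. After that result, 1 G or C was allowed among the 6 central bases (a CArG-like box; the pattern is the same on both strands), and Acta2 was the only one of the 16 with a match (6.25%), against 8.54% of ranked genes. The sequence runs over the 250 bases before the start, chr1:241172504-241172753 on the minus strand, with both boxes in capitals, 134 and 84 bases before the start.
Acta2: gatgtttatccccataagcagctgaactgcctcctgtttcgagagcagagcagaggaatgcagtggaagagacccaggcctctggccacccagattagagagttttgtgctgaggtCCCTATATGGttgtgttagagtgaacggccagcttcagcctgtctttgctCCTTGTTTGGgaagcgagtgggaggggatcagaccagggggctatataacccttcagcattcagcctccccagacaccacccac

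The regulators of these genes were far apart in probe signal. Serum response factor (Srf), which is present in most cells, lay in the brightest 10% at 4.06 to 4.51 with an SD of 0.16, while myocardin (Myocd), its smooth muscle and heart partner, ranked 6886 with levels from -2.87 to -1.42. Foxs1, a forkhead factor of the vessel wall, was the most variable of the 12 ranked regulators (SD 1.17) and ranged from -2.70 to 0.18. Myocd and Foxs1 were lowest on arrays 3 and 7, and Srf was highest on arrays 1 and 5.

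Genes of the extracellular matrix stood beside the contractile genes at the top. Of the ranked collagens 7 of 10 (70.0%) lay in the brightest 10%, as did 10 of 14 (71.4%) proteoglycan and matricellular genes, but 2 of 14 (14.3%) genes of the elastic fibre. Col1a2 and Col1a1, the chains of type I collagen, were at 7.74 ± 0.25 (SD, n = 8; 0.31 over 3 averages) and 7.09 ± 0.50 (0.62), and Col3a1, which forms the fine fibres of vessel walls, at 7.21 ± 0.39 (0.50). Elastin (Eln) ranked 29 and spanned 6.55 to 7.52, with 6.59 and 6.55 on arrays 3 and 7 and at least 7.14 on the other 6. A second ranked probe of Eln had a mean of -0.40 and an SD of 0.92, and that of Col1a1 3.08 and 0.82. The ranks and SDs of both genes therefore hold for their brighter probe only.

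Secreted matrix proteins other than collagens were as bright. Biglycan (Bgn), a small proteoglycan of collagen fibres, ranked 7 at 7.32 to 8.01, and matrix Gla protein (Mgp), an inhibitor of arterial calcification made by smooth muscle, ranked 14 at 6.97 to 7.98. Osteopontin (Spp1) was at 5.29 to 6.91, fibronectin (Fn1) at 5.53 to 7.17 and Sparc, a collagen-binding glycoprotein, at 5.24 to 7.12. Bgn and Fn1 each had a dimmer ranked probe, with a mean of 1.03 (SD 0.80) for Bgn and -0.65 (SD 1.26) for Fn1. The CCN proteins Ccn3 and Ccn2, secreted regulators of matrix and growth, ranked 5 and 13 with SDs of 0.40 and 0.18.

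Most matrix genes were lowest on the same arrays as the contractile genes. Arrays 3 and 7 were both below arrays 1, 2, 5 and 6 for 14 of 14 proteoglycan and matricellular genes, 12 of 14 elastic fibre genes and 8 of 10 collagens (38.6% of all ranked genes). Of the 3 averages, that of arrays 3 and 7 was the highest for 2 elastic fibre genes and not the lowest for 2 collagens. One of these collagens was Col4a1, of basement membranes, which was among the steadiest bright genes at 5.63 to 5.90 (SD 0.10). The fibulin Fbln1 was the most variable matrix gene of these lists, at -0.66 and -0.79 on arrays 2 and 6 and -4.57 and -5.22 on arrays 3 and 7. Of markers of adventitial fibroblasts, 4 of 10 lay in the brightest 10%; gelsolin (Gsn) ranged from 4.04 to 5.41 and Pdgfra, a growth factor receptor of fibroblasts, from 1.31 to 3.35.

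Among the lists, ribosomal protein genes held the most of the 100 brightest genes. Of 75 cytosolic ribosomal protein genes, 72 (96.0%) lay in the brightest 10% and 40 were among the 100 brightest genes, beside 6 matrix, 5 red cell, 3 contractile and 3 collagen genes and 33 genes in none of the lists. Rplp2, a stalk protein of the large subunit, ranked 6 at 7.61 to 8.27, Rpl41 ranked 10 at 7.62 to 7.93 and Rplp0 ranked 22 at 7.19 to 7.47. Ribosomal protein genes have many processed pseudogenes, so signal of near-identical copies could not be separated by probe.

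These genes were also steady. Their median SD was 0.19, below the 0.33 of all genes, and 13 of the 75 (17.3%) lay in the steadiest 10% (9.99% of all genes), with 1 in the most variable. That count depended on the processing: it was 25 with quantile normalisation and with the authors' deposited values, 2 after normexp background correction, 6 over the 3 averages and 7 without array 3. Of translation factors, 9 of 12 lay in the brightest 10% and 4 in the steadiest; Tpt1, a growth-linked protein that binds tubulin, ranged from 7.39 to 7.81.

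The start sites of ribosomal protein genes are printed because they carry a shared sequence. Transcripts of this family begin at a C followed by a run of C and T, the 5′ terminal oligopyrimidine tract, through which their translation is controlled by mTOR. A C followed by at least 4 bases that are each C or T stood exactly at the annotated start in 23 of 60 ranked ribosomal protein genes (38.3%), in 2.56% of all 8642 ranked genes with a promoter in the RefSeq table and in 4.49% of those in the brightest 10%. Only the gene's own strand was searched. Shown are the 6 brightest with such a run, each with 20 bases before and 10 bases from the start (GRCr8); capitals mark the run within the window.
Rpl19: gagcccgcgaccagcaagctCTTTCCTTTC
Rpl35: ggccccgccccttcctctttCTCTCgaacc
Rplp0: ctggtgaccgcaccgcacttCTCTCgccag
Rpl37a: accgcgcatgcccgttgcgtCTCTTCCTCT
Rpl31: ccatcccacaatccctcgcgCCTTTCCTTT
Rpl9: gtgatgacgaaggacgttctCTCTTTgccc

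The windows lie at chr10:83519044-83519073 (Rpl19, plus strand), chr3:43165912-43165941 (Rpl35, minus), chr12:46718381-46718410 (Rplp0, minus), chr9:81748071-81748100 (Rpl37a, plus), chr9:49143091-49143120 (Rpl31, plus) and chr14:43247570-43247599 (Rpl9, plus). A match is a description of the sequence, and levels of these genes were not related to it.

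**Figure D3:**
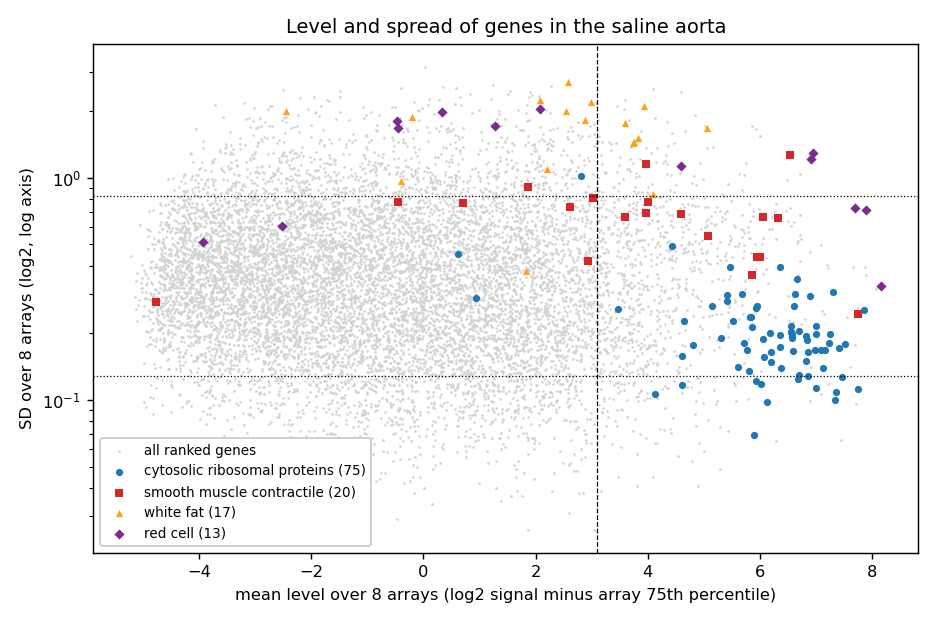
Mean level (x) against SD over the 8 saline arrays (y, log axis) for the 10548 ranked genes (grey) and for members of 4 lists (coloured). The dashed line is the edge of the brightest 10% and the dotted lines the edges of the most variable (0.83) and steadiest (0.13) 10%; ribosomal protein genes lie bright and low in SD, white fat genes high in SD.

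Several single genes outside these groups were as bright. Gnas, the stimulatory G protein subunit that links adrenergic receptors to cyclic AMP, ranked 4 at 7.45 to 8.42 and was highest on arrays 3 and 7 (8.42 on both). Ceacam9, of the carcinoembryonic antigen family, ranked 2 at 7.78 to 8.63. The ferritin heavy chain Fth1 (rank 19) and gamma actin Actg1 (rank 11), an actin of all cells, had SDs of 0.07 and 0.10; that of Fth1 was 0.12 with quantile normalisation and with the authors' deposited values. Twnk, the mitochondrial DNA helicase, ranked 28 with an SD of 0.12, but its second ranked probe had a mean of -4.36 and an SD of 0.70. The second probe of Gnas had a mean of 0.46 and an SD of 1.80, so the ranks of both genes hold for 1 probe each.

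The steadiest genes had small differences at every level. Usp14, a deubiquitinase of the proteasome, had the lowest SD of all ranked genes (0.03, levels 1.81 to 1.89), followed by nucleolin (Ncl), which acts in ribosome assembly, at 2.99 to 3.06. Abca1, which exports cholesterol from cells, was as steady at a level below 0 (-1.75 to -1.66). The SDs of Usp14 and Abca1 lay below the median SD of repeated spots within an array (0.0421 to 0.0535). The order among the steadiest genes is therefore not resolved. The bright genes with the lowest SDs included Nop53 (4.82 to 4.93), a ribosome assembly factor, and the splicing factor subunit Sf3b1 (5.22 to 5.35), whose second probe had an SD of 0.57.

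As a group, subunits of the proteasome were steady: 8 of 29 (27.6%) lay in the steadiest 10% and 0 in the most variable, with a median SD of 0.17. Psmd6 was at 4.12 to 4.33 and Psmc2 at 4.52 to 4.87 over the 8 arrays. The count was 4 over the 3 averages and 5 after normexp background correction. The median SD in the successive 10% classes of brightness lay between 0.30 and 0.36.

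Genes often used as references for PCR differed in spread. Their median SD was 0.24 over 15 ranked members, and 2 lay in the most variable 10%. Rplp0 (SD 0.10) and Rpl13a (0.17) were steady, and beta actin (Actb) was at 3.49 to 4.64 with its lowest levels, 3.72 and 3.49, on arrays 3 and 7. Sdha, a subunit of succinate dehydrogenase, was at 6.08 and 6.07 on arrays 3 and 7 and at 2.93 to 3.65 on arrays 1, 2, 4, 5 and 6; the transferrin receptor Tfrc had an SD of 1.06 and the glycolytic enzyme Pgk1 of 0.50. Pgk1 was at 6.41 and 6.50 on arrays 3 and 7 and at most 5.90 elsewhere.

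**Figure D4:**
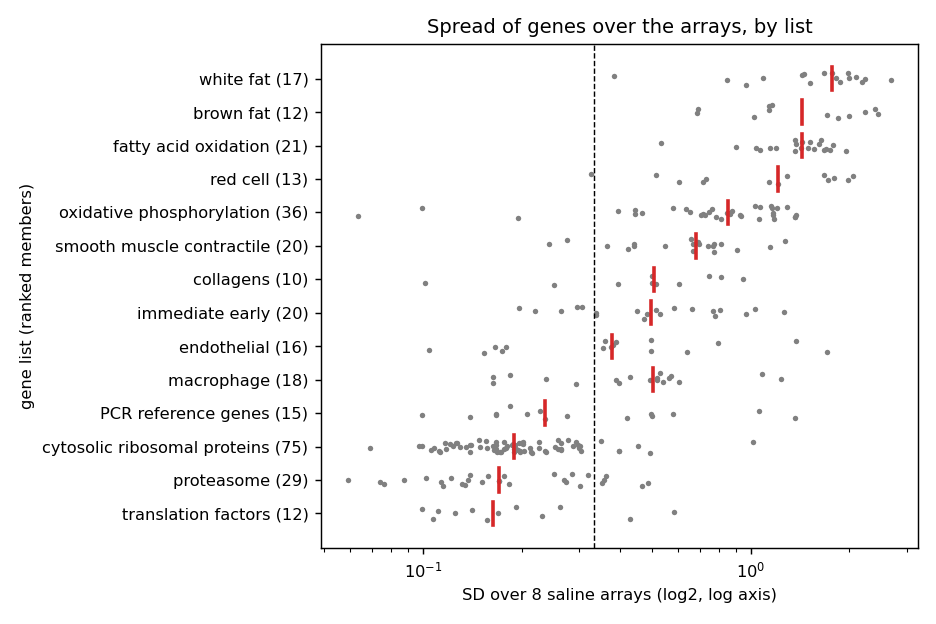
SD over the 8 saline arrays (log axis) of every ranked member of 14 lists, 1 point per gene, with the list's median as a red bar and the median of all genes (0.33) as a dashed line. White fat, brown fat and fatty acid oxidation genes have the highest medians (1.77, 1.44 and 1.43), translation factors the lowest (0.16).

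Lists of fat cells and of mitochondrial fuel use had many members among the variable genes of the saline aorta. Of ranked white fat markers 16 of 17 (94.1%) lay in the most variable 10%, as did 10 of 12 (83.3%) brown fat markers, 20 of 21 (95.2%) genes of fatty acid oxidation and 19 of 36 (52.8%) of oxidative phosphorylation, against 9.99% of all ranked genes. They were highest on arrays 3 and 7: both of these lay above arrays 1, 2, 5 and 6 for 15 of 17 white fat, 11 of 12 brown fat, 20 of 21 fatty acid oxidation and 33 of 36 oxidative phosphorylation genes, and for 31.4% of all ranked genes.

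Adiponectin (Adipoq), a hormone of fat cells, was at 2.84, 5.04, 7.00 and 4.32 on arrays 1 to 4 and at 2.84, 5.07, 7.03 and 6.31 on arrays 5 to 8. Its level was nearly the same within the pairs 1 and 5, 2 and 6, and 3 and 7, and array 8 lay between 2 and 3. Pck1, which makes glycerol for fat storage in fat cells, had the second-highest SD of all genes (2.68; 3.26 over 3 averages), from -0.72 to 6.02. Gpd1, which supplies glycerol phosphate, spanned 1.21 to 6.59.

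Ucp1, the uncoupling protein that defines thermogenic fat, was at 2.40, 4.31, 7.69 and 3.66 on the first slide and 1.02, 3.53, 7.25 and 6.90 on the second. Arrays 3, 7 and 8 were also the highest for Cidea, a lipid droplet protein of brown and beige fat (3.73 to 8.00), and for Adrb3, the adrenergic receptor of fat cells (-0.56 to 5.62, SD 2.59). Zic1, a transcription factor of classical brown fat, was well above background on none of the 8 arrays. Tmem79, a membrane protein in none of the lists, had the highest SD of all (3.15), with 4.16 and 4.15 on arrays 3 and 7, 3.02 on array 8 and at most -1.61 on the other 5.

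Of 21 genes of fatty acid oxidation, 7 (33.3%) also lay in the brightest 10%. Acadl, the long-chain acyl-CoA dehydrogenase, ranked 59 at 5.56 to 8.10, and Acaa2, the thiolase of the last step of each cycle, spanned 0.12 to 4.81. Oxidative phosphorylation had 31 of 36 members in the brightest 10%; Uqcrb of complex III was at 7.50 and 7.60 on arrays 3 and 7 and at 6.11 to 6.89 on the other 6, and cytochrome c (Cycs) spanned 3.97 to 7.15. Among the 100 most variable genes, 74 had arrays 3 and 7 above arrays 1, 2, 5 and 6 (31.4% of all ranked genes). Another 11 had them below (38.6% of all ranked genes). These 100 genes were picked by their SD over the same arrays, so wide gaps between arrays are part of the selection. Of the 100, 8 were white fat and 5 brown fat markers and 1 was a fatty acid oxidation gene. None was an oxidative phosphorylation gene, and 80 were in none of the lists.

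In whole tissue, fewer cells of a type and less RNA per cell cannot be told apart, and fat genes were high on the arrays where contractile and matrix genes were low. The median deviation of white fat markers from their own means was 2.13 and 1.98 on arrays 3 and 7 and -2.17 and -2.20 on arrays 1 and 5. For contractile genes it was -0.83 and -1.20 on arrays 3 and 7 and 0.51 and 0.41 on arrays 1 and 5. The sources used here do not say how much fat was left on each aorta, and its part in the levels of other genes was not tested.

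**Figure D5:**
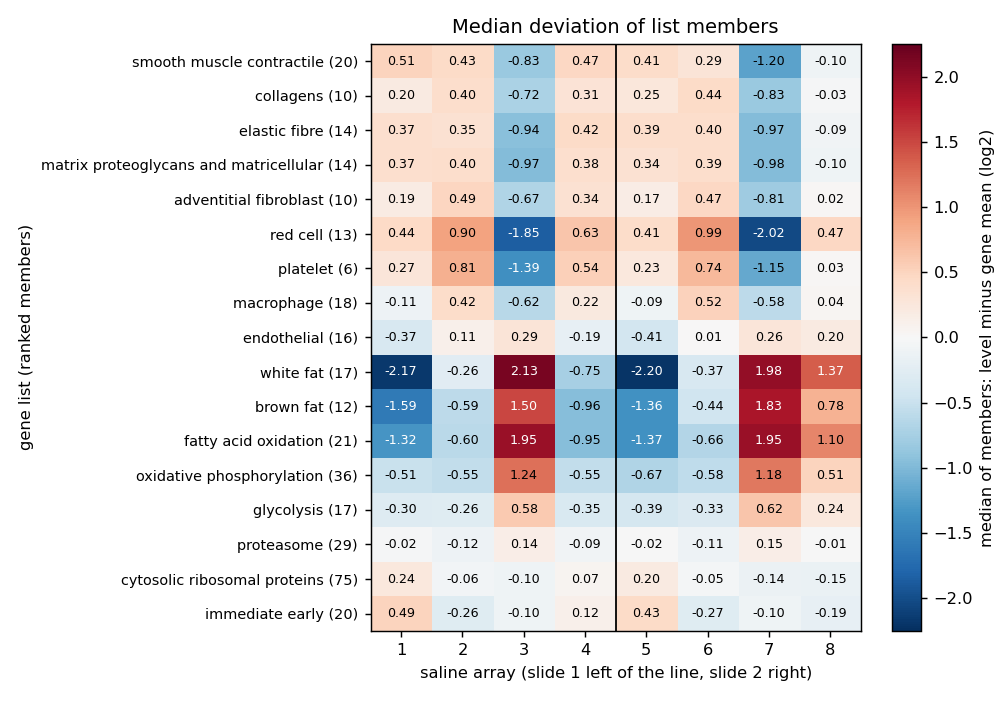
Median over list members of the level minus the gene's own mean (log2), for 17 lists (rows) on each of the 8 saline arrays (columns). Arrays 3 and 7 are red for fat and mitochondrial lists (2.13 and 1.98 for white fat) and blue for contractile, matrix, red cell and platelet lists (-1.85 and -2.02 for red cells); arrays 1 and 5 are lowest for white fat.

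Of 14 red cell genes on the array 13 were well above background on all 8 arrays, at unequal levels, beside 69.5% of all genes. Hbb, a beta globin, was the brightest of all 10548 genes at 8.15 ± 0.33 (SD, n = 8; 0.41 over 3 averages), with Hbb-b1 at rank 3 and the alpha globin Hba-a1 at rank 12; globin genes are close copies, so probes may share their transcripts, and a second probe named Hbb had a mean of 1.71. Of 13 ranked red cell genes, 6 lay in the brightest 10% and 8 in the most variable. Alas2, the first enzyme of heme synthesis in red cell precursors, was at 2.60, 3.82, -1.07 and 3.35 on arrays 1 to 4 and 2.46, 3.77, -1.20 and 2.94 on arrays 5 to 8.

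Red cell genes were lowest where fat genes were highest. Hemgn, a nuclear protein of red cell precursors, was at -2.87 and -2.72 on arrays 3 and 7 and at 0.94 to 1.96 on the others. Arrays 3 and 7 were both below arrays 1, 2, 5 and 6 for 12 of 13 red cell genes, against 38.6% of all ranked genes. Platelet factor 4 (Pf4) had 0.14 and 0.26 on arrays 3 and 7 and 2.87 to 3.77 on the others. For 6 of 6 platelet genes arrays 3 and 7 were below arrays 1, 2, 5 and 6, beside the same 38.6%. The globins lay in the same direction, with Hbb at 7.64 and 7.68 on arrays 3 and 7 and 8.07 to 8.49 on the others, and Hbb-b1 at 6.86 and 6.67 against 8.00 to 8.57.

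All 16 endothelial markers on the array were ranked, 2 lay in the brightest 10% and 2 in the most variable. Of the 3 averages, that of arrays 1 and 5 was the lowest for 13 of 16 (23.8% of all ranked genes), and that of arrays 3 and 7 the highest for 9 of 16 (40.2%). The median deviation of the list was -0.37 and -0.41 on arrays 1 and 5 and 0.29 and 0.26 on arrays 3 and 7. Single markers differed in spread. Erg, a transcription factor of endothelium, was at 3.50 to 3.99, and endothelial nitric oxide synthase (Nos3), the source of vessel-relaxing nitric oxide, was at -1.90 to -1.43. The receptor Kdr of vascular endothelial growth factor was at 5.25 and 5.22 on arrays 3 and 7 and 1.21 and 1.27 on arrays 1 and 5, and endomucin (Emcn), a sialomucin of capillary and venous endothelium, spanned -3.05 to 0.41 and was also highest on arrays 3 and 7.

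Pecam1, an adhesion molecule of endothelium, was low on arrays 5 to 7 (2.28, 2.91 and 1.88) and at 3.29 to 4.00 on the other 5. Of lymphatic markers 4 of 5 were ranked, beside 69.5% of all genes. Prox1, the transcription factor that defines lymphatic endothelium, was well above background on no array.

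Among immune lists, that of macrophages was the one with most members ranked. Of 20 macrophage genes on the array 18 were ranked and 2 lay in the brightest 10%; lysozyme (Lyz2) ranged from 5.29 to 6.41 and the complement subunit C1qb from 2.31 to 3.75, with arrays 2 and 6 highest for C1qb. Of T cell genes 7 of 14 and of B cell genes 1 of 5 were ranked, beside 69.5% of all genes. Cd3e, Cd8a, Cd5, Cd28, Cd79b and Cd22 were well above background on no array, as were the neutrophil genes Ngp, Mmp8 and Mmp9. Cd3d of the T cell receptor complex had a mean of 0.10 and the neutrophil gene S100a8 of -1.05.

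Of the neuron list 6 of 11 genes were ranked and of the Schwann cell list 8 of 12, beside 69.5% of all genes, with median SDs of 0.58 and 0.37. Neuropeptide Y (Npy), a transmitter of sympathetic nerves, was at 3.83, 4.51, 0.19 and 4.22 on arrays 1 to 4 and 3.79, 4.47, 0.25 and 3.62 on arrays 5 to 8, while Th, the first enzyme of noradrenaline synthesis, kept to -0.20 to 1.04. Dbh and Nefl were well above background on no array. Myelin basic protein (Mbp), with the highest SD of the Schwann cell list (2.12), was high where Npy was low, at 2.60 and 2.57 on arrays 3 and 7 and -2.79 and -2.65 on arrays 1 and 5.

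Of markers of other organs, 4 of 7 of lung, 4 of 9 of liver, 4 of 8 of heart muscle, 12 of 15 of skeletal muscle, 4 of 5 of squamous epithelium and 6 of 8 of cartilage and bone were ranked, beside 69.5% of all genes. Sftpb and Sftpa1 of the lung, Krt13 and Krt19 of epithelia, Fga of liver, Acan and Cnmd of cartilage, Myh4 of fast muscle and Nppa and Nppb of heart muscle were well above background on no array. In the brightest 10% lay 1 of 4 ranked liver genes and 1 of 4 ranked heart muscle genes, alpha cardiac actin (Actc1) at 1.18 to 5.17. Actc1 is close in sequence to other actins, so its probe may share their signal, and like Acta2 it was lowest on array 7. The fast myosin Myh1 was at -0.44 and -0.36 on arrays 1 and 5 and -3.17 and -3.11 on arrays 3 and 7.

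Genes of blood pressure control were spread over the ranking. In the list of the angiotensin system 11 of 14 genes were ranked, beside 69.5% of all genes, and Agtr2 was well above background on no array. Angiotensinogen (Agt), the precursor of angiotensin, which fat cells also make, was at -1.09, 1.05, 2.94 and 0.37 on arrays 1 to 4 and -1.14, 1.11, 2.94 and 2.09 on arrays 5 to 8, in the order of the fat genes. The angiotensin receptor Agtr1a was at 0.38 to 1.13 (SD 0.24). Agtr1b was at -0.24 and -0.28 on arrays 1 and 5 and -1.82 and -1.88 on arrays 3 and 7. Angiotensin-converting enzyme (Ace) ranged from -0.81 to 0.49.

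Among receptors and channels of vascular tone, the natriuretic peptide receptor Npr1, a guanylyl cyclase that relaxes vessels, was the brightest receptor at 4.36 to 5.19. Endothelin-1 (Edn1), a constrictor peptide, was at -2.21 to -1.22 and its receptor Ednra at -2.27 to -1.55. The calcium release channel Itpr1 lay in the brightest 10% at 5.13 to 5.76. Phospholamban (Pln), which restrains the calcium pump of the internal store, and Cacna1c, the calcium channel targeted by common blood pressure drugs, were lowest on arrays 3 and 7, at 2.77 and 2.74 and at -1.64 and -1.66.

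Immediate early genes, which respond within minutes to handling and stress, were often highest on arrays 1 and 5. Of 20 ranked genes 14 had their highest average there (32.2% of all ranked genes), as did 15 of 20 contractile and 66 of 75 ribosomal protein genes, and 9 of the 20 had their lowest on arrays 3 and 7 (47.4%). Of the 20, 3 lay in the most variable 10%. Fos was at 2.21 and 2.27 on arrays 1 and 5, -0.26 and -0.21 on arrays 2 and 6, and between these on arrays 3 and 7 (1.14 on array 3); Junb ranged from 5.66 to 6.43 and Nr4a3 from 1.14 to 3.79. Jund was at 5.42, 5.48, 4.38 and 5.45 on the first slide and at 3.18, 3.40, 2.16 and 5.06 on the second.

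Of promoters of this group in the table, 4 of 13 genes (30.8%) had a CArG box against 1.28%, and 7 of 13 (53.8%) had either kind against 8.54%. Boxes of 5 of these genes are printed for comparison with the boxes of Acta2, each as 10 bases before the box, the box in capitals and 10 bases after, from the GRCr8 table on the gene's own strand.
Egr2, CArG box: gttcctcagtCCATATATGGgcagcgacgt
Zfp36, CArG box: ccgggccgccCCATAAAAGGcgaaagctcc
Klf6, CArG box: aataggaaggCCTTTAATGGagaggctcgg
Fosl1, CArG-like box: ggaaattgcaCCATGTATGGgcagctgcgt
Nr4a1, CArG-like box: ccccccgcgcCCTTGTATGGccaaagctcg

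With their flanks the boxes lie at chr20:21054505-21054534 (Egr2, minus strand), chr1:92799121-92799150 (Zfp36, minus), chr17:69458660-69458689 (Klf6, minus), chr1:212183774-212183803 (Fosl1, plus) and chr7:134260014-134260043 (Nr4a1, plus). Of these, the box nearest to its start was that of Zfp36, 32 bases before it. Zfp36 and Klf6 were chosen for printing after their boxes were seen.

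Of 15 ranked clock genes, 0 lay in the brightest or most variable 10%. Dbp, an output gene of the clock, was at 3.72 and 3.66 on arrays 1 and 5, 3.00 and 3.16 on arrays 3 and 7 and 1.83 and 1.99 on arrays 2 and 6. Bmal1, which peaks in the opposite phase to Dbp, was highest on arrays 2 and 6 at 0.86 and 0.95 and at most 0.43 on the other 6. Nr1d1, a repressor of Bmal1, was dim at -4.05 to -3.22. The sources used here do not state the hour at which each aorta was taken.

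The slides were compared as the batch of these arrays. With limma (moderated 2-sided test, Benjamini-Hochberg adjustment) over all 19770 ranked probes, 0 (0%) differed between the second and first slide at an adjusted p under 0.05, and 1061 had an unadjusted p under 0.05; with the position on the slide as a block 0 differed and 3186 had an unadjusted p under 0.05. Leaving out array 8 gave 503 probes (2.54%), and leaving out arrays 4 and 8 gave 193 (0.976%). Leaving out both, with the position on the slide as a block, gave 2560 (12.9%), of which 1151 were higher on arrays 5 to 7. This added analysis was run after the data were seen, had 2 residual degrees of freedom and left out array 8 of the second slide. Its p-values compare arrays 5 to 7 with arrays 1 to 3, which resemble each other in pairs. They do not measure a difference between slides or between rats.

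The widest differences of the added analysis put arrays 5 to 7 on one side, while array 8 lay with the first slide on the other. Slc3a1, an amino acid transporter subunit of kidney, was at -0.89, -1.30, -0.35 and -1.05 on arrays 1 to 4, 3.82, 3.11 and 4.08 on arrays 5 to 7 and -0.86 on array 8. Arrays 5 to 7 minus 1 to 3 differed by 4.51 ± 0.07 (SE; limma adjusted p 0.0049 in the added analysis). The olfactory receptor Or2y16 differed by 4.14 in the same direction, and the transcription factor Tbx3 by -4.24 and the cytokine Il33 by -3.79 in the other.

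Some genes described above also differed between arrays 5 to 7 and arrays 1 to 3, though in the planned comparison of all 8 arrays 0 probes differed. In the added analysis Jund differed by -2.18 (limma adjusted p 0.0049), Pecam1 by -1.35 (0.0138), Csrp1 by -1.45 (0.0172) Tpm1 by -0.68 (0.0142), Actc1 by -1.54 (0.0366) and Cx3cr1, a macrophage receptor, by 2.35 (0.0049). Acta2 differed by -1.66 ± 0.43 (SE) and missed the threshold (0.0882). For Acta2, Csrp1 and Tpm1 these sets of arrays overlapped, with array 3 below array 5. The SDs over 8 arrays of all these genes include the difference of arrays 5 to 7 from arrays 1 to 3. The SD over 3 averages of Cx3cr1 was 0.21 against 1.23 over 8 arrays.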

How the data were processed

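RNA of 8 thoracic aortas from saline-treated rats was measured on 1-colour Agilent arrays. The authors deposited scanner files from Agilent Feature Extraction 11.0.1.1, whose processed intensity is background-corrected, per the file headers. The authors also deposited a table of log2 values with equal medians (5.76) on each array, made by a method that the sources used here do not state; it served as an alternative.

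Outlier spots were dropped, spots of a probe were averaged, log2 was taken, and the 75th percentile of all non-control probes of that array was subtracted. The scanner's flag for signal well above background had to be set for a share of at least 0.5 of a probe's spots; 45 probes with only outlier spots on an array were left out. On each array 67.4% to 76.2% of probes were above background and 0 were saturated. The number of arrays limits the precision.

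Names came from RefSeq's GRCr8 gene table by unversioned accession: 18005 probes matched 1 symbol, 0 several and 12362 none, and unnamed probes entered only counts of probes. The scanner files name the rn4 build, and none of their coordinates are printed. The 43 gene lists hold 754 genes, of which 665 were on the array and 581 were ranked. The members and lists were chosen with earlier results of these data known.

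Genes were named by rule: the 30 brightest, the 15 steadiest, the 15 steadiest of the brightest 10% and the 25 with the highest SD, up to 6 brightest and 4 most variable members of each list, list members above background on no array, and a fixed set that included Acta2, Tagln and Myh11. The slides were compared with limma 3.58.1 in R 4.3.3. On simulated data with 200 changed probes among 19770, that comparison recovered 41% of changes of 1 and 76% of changes of 2 on the log2 scale, with 15 false calls. The simulated arrays varied independently of each other, unlike the arrays here, so these rates may not hold for these data. Other steps used Python 3.11.15, pandas 2.3.3 and numpy 2.4.6.

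Alternatives were quantile normalisation, normexp background correction (offset 50, on median instead of mean signals), the authors' values, other filters on dim probes, arrays left out, the 3 averages and removal of slide means. Arrays 1, 2 and 3 alone, and the slide comparison without arrays 4 and 8 with position as a block, were added after the data were seen.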

Additional observations from a re-analysis of the deposited data

Results flagged for a closer look

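Of 111 genes checked, 3 had 1 array apart from the other 7 by Dixon's criterion (the gap to the nearest array over the whole range, above the critical value for 8 arrays), which chance alone meets in about 1 of 20 groups. Fth1, the ferritin heavy chain, was at 7.58 on array 6, with the nearest array at 7.46 (0.554 of the range). Acta1, skeletal muscle actin, was at -1.25 on array 7, with the nearest at -0.42 (0.544). Cd3g, a chain of the T cell receptor complex, was at -0.31 on array 4, with the nearest at -2.11 (0.711). Acta1 is close in sequence to Acta2, which was also lowest on array 7.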

How the results depend on the processing

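The count of ribosomal protein genes in the steadiest 10% (13) was 25 with quantile normalisation and with the authors' deposited values, 2 with normexp, 6 over the 3 averages and 6 on arrays 1, 2 and 3 alone, and 7 to 16 with 1 array left out. The count of proteasome genes there (8) was 5 with normexp, 4 over the 3 averages and 5 on arrays 1, 2 and 3 alone. Probes differing between slides (0) were 0 to 503 with 1 array left out, 503 being without array 8, then 193 without arrays 4 and 8 and 2560 without both and with position as a block. Under all alternatives run, 13 to 16 contractile, 72 to 73 ribosomal and 29 to 32 oxidative phosphorylation genes lay in the brightest 10%. In the most variable 10% were 14 to 16 white fat, 9 to 10 brown fat, 19 to 20 fatty acid oxidation, 13 to 26 oxidative phosphorylation and 8 to 10 red cell genes. The genes ranked (10548) were 11255 with at least 6 arrays above background and 15148 with no filter. Of recomputed values of named genes, 356 of 360 means moved by less than the SD between arrays and 401 of 408 SDs by at most 1.5 times; among the exceptions, the mean of Nr1d1 was -2.67 with normexp. No paired analysis was possible because a single group was analysed, so no groups share replicate numbers; the block by position above pairs arrays of the 2 slides within that group.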
